A study of Mus musculus with 10 samples.

Results

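The angiopoietin ligands Angpt1 and Angpt2 and the receptors Tek (also called Tie2) and Tie1 were examined in whole kidneys of E13.5 mouse embryos. Members were the entries of the deposited FPKM table (fragments per kilobase of coding sequence per 1e6 fragments) whose symbol is one of these 4 names, and 4 of the 35663 entries were found. All kidneys came from C57/b6 embryos, and 3 genotypes were sequenced. There were 4 wild-type libraries, 3 libraries from Foxd1-Cre control kidneys (Foxd1GC control) and 3 libraries from kidneys with Foxd1-Cre and conditional Ntn1 alleles on both chromosomes (Ntn1/cc in the labels, called Ntn1SPKO). The Foxd1-Cre allele, a knock-in at the Foxd1 locus, is carried by both the control and the Ntn1SPKO kidneys but not by the wild-type ones. It acts in cortical stromal progenitors and their descendants, and the paper describes the deletion as specific to the kidney stroma. Whether any endothelial cells lost Ntn1 was not tested here. The labels give no sequencing batch and do not say whether replicates came from separate litters, so the p-values measure the spread between these libraries only.

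Angiopoietins are secreted ligands of the Tek receptor tyrosine kinase, which is made mainly by endothelial cells. Angpt1, made by mesenchymal and perivascular cells, activates Tek and steadies vessels, whereas Angpt2, made largely by endothelial cells, acts as a weaker agonist or an antagonist depending on context. Tie1 binds neither ligand strongly and forms complexes with Tek that tune its signal. In the kidney these genes are known for their part in the glomerular capillaries and the vessels of the medulla.

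The targeted gene Ntn1, which encodes the secreted guidance cue netrin 1, was at 31.9, 28.3, 27.1 and 46.3 FPKM in the wild-type libraries, at 40.7, 24.2 and 51.4 in Foxd1GC control and at 16.3, 13.1 and 10.7 in Ntn1SPKO libraries. Every Ntn1SPKO library was below every other one. On the log2(FPKM+0.1) scale, Ntn1 in Ntn1SPKO differed by -1.48 from Foxd1GC control (limma adjusted p = 0.447) and by -1.3 from wild-type (limma adjusted p = 0.14). Foxd1GC control replicate 3 stood apart from the rest. Its ureteric bud marker sum was 54.5 FPKM, against 157 to 174 in wild-type and Ntn1SPKO libraries, and its skeletal muscle marker sum was 429 against 15.1 to 102. Y-linked transcripts were present in 1 wild-type, 1 Foxd1GC control and all 3 Ntn1SPKO libraries, so the sex of the embryos moves with the genotype. Endothelial cells were represented in each library, with Pecam1, Cdh5 and Kdr at group means of 17.6 to 48.4 FPKM. A whole kidney mixes cell types, so fewer cells of a type and less RNA per cell cannot be told apart.

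By level, Tek came first with 12.1 ± 1.05 FPKM (SD, n = 10), followed by Tie1 with 9.96 ± 1.53 and Angpt1 with 9.78 ± 1.70, which did not differ beyond their spread. Tek was above Tie1 in 9 of the 10 libraries. Angpt2 was far lower, with 2.07 ± 0.556 FPKM. FPKM is per length, so these levels can be set side by side. Among genes that averaged 0.5 FPKM or more, 48.8% lay below Tek, 43.9% below Tie1, 43.5% below Angpt1 and 18.0% below Angpt2. The third ligand gene, Angpt4, stayed between 0.0165 and 0.164 FPKM in all 10 libraries and was not tested. No 31-base word of any of the 4 coding sequences occurs in the transcripts of another gene, so reads of the members could be told from those of relatives.

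**Figure D1:**
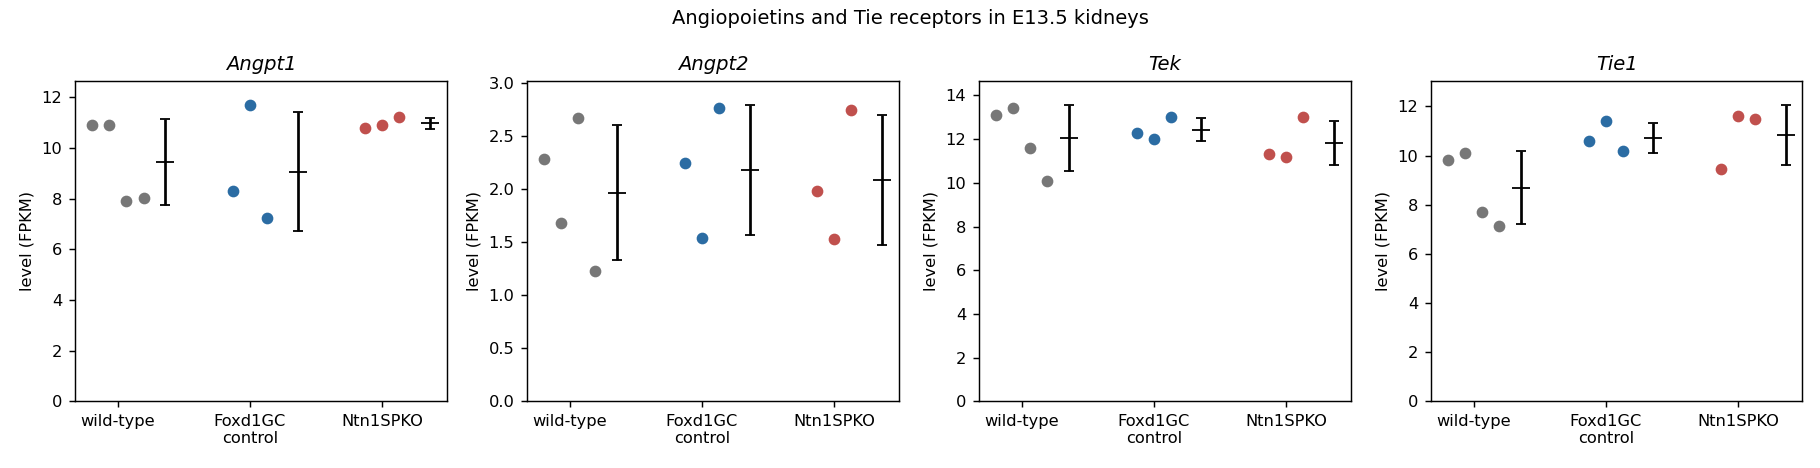
Levels in FPKM of Angpt1, Angpt2, Tek and Tie1 (vertical axes, from 0) in 4 wild-type, 3 Foxd1GC control and 3 Ntn1SPKO libraries; points are libraries in replicate order, bars the mean ± SD. The 3 Ntn1SPKO points of Angpt1 lie between 10.8 and 11.2 FPKM, while Angpt2 spans 1.23 to 2.76 FPKM with an SD of 0.610 to 0.634 in each group.

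Angpt1, the activating ligand, lies on the minus strand of chromosome 15 (GRCm38, chr15:42424723-42676977) with 1 annotated coding transcript. It was at 10.9, 10.9, 7.91 and 8.02 FPKM in the wild-type libraries, at 8.28, 11.7 and 7.22 in Foxd1GC control and at 10.8, 10.9 and 11.2 in Ntn1SPKO libraries. The Ntn1SPKO libraries were close together and lay inside the range of the control values. Their coefficient of variation was 2.21%, against 17.9% in wild-type and 26.0% in Foxd1GC control. A smaller spread in Ntn1SPKO is not particular to Angpt1. Of the pathway genes below, Svep1 had an SD of 0.122 FPKM in Ntn1SPKO and 2.24 in Foxd1GC control, and Ets1 0.306 and 3.84. Tek and Tie1 went the other way, with 0.977 and 1.24 in Ntn1SPKO and 0.518 and 0.568 in Foxd1GC control. The mean of Angpt1 was 11.0 ± 0.242 FPKM (SD, n = 3) in Ntn1SPKO and 9.08 ± 2.36 (n = 3) in Foxd1GC control. This is a difference of 0.30 on the log2(FPKM+0.1) scale (SE 0.18). The fold was 1.23, with a 95% interval of 0.915 to 1.66, limma's adjusted p was 0.48 and the exact permutation p was 0.4. In a comparison of 3 against 3 the smallest exact p is 0.1, so that test cannot reach 0.05. Control replicate 3, the library that stood apart, had the lowest Angpt1, and without it the difference from Ntn1SPKO was 0.15. Control replicate 2 had the highest, and without it the difference was 0.50 (limma adjusted p = 0.128).

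Angpt2, the context-dependent ligand, lies on the minus strand of chromosome 8 (chr8:18690263-18741562), also with 1 coding transcript. Its levels were 2.28, 1.68, 2.67 and 1.23 FPKM in wild-type, 2.24, 1.54 and 2.76 in Foxd1GC control and 1.98, 1.53 and 2.74 in Ntn1SPKO libraries. The 3 groups covered nearly the same range, and the highest library exceeded the lowest 2.16-fold within wild-type alone. Group means were 1.97 ± 0.634 (SD, n = 4), 2.18 ± 0.612 (n = 3) and 2.08 ± 0.610 FPKM (n = 3) in that order. Between Ntn1SPKO and Foxd1GC control the fold was 0.955, with an interval of 0.585 to 1.56 that leaves room for changes of over 1.5-fold in both directions (limma adjusted p = 0.924, exact permutation p = 0.7). Roughly 53 to 117 fragments lay behind each Angpt2 value and 987 to 1341 behind each Tek value, as estimated from the steps between low FPKM values.

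Tek, the angiopoietin receptor, lies on the plus strand of chromosome 4 (chr4:94739289-94874976) with 3 coding transcripts. It was at 13.1, 13.4, 11.6 and 10.1 FPKM in wild-type, at 12.3, 12.0 and 13.0 in Foxd1GC control and at 11.3, 11.2 and 13.0 in Ntn1SPKO libraries. These groups overlapped, and of the 4 members Tek varied least over the 10 libraries, with a coefficient of variation of 8.70% against 15.4% for Tie1, 17.4% for Angpt1 and 26.9% for Angpt2. Its means were 12.0 ± 1.52, 12.4 ± 0.518 and 11.8 ± 0.977 FPKM. The fold between Ntn1SPKO and Foxd1GC control was 0.950, the narrowest interval of the 4 members ran from 0.821 to 1.10, and neither test passed (limma adjusted p = 0.687, exact permutation p = 0.3).

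Tie1, the partner receptor, lies on the minus strand of the same chromosome (chr4:118471191-118490061) with 2 coding transcripts. Its levels were 9.81, 10.1, 7.70 and 7.15 FPKM in wild-type, 10.6, 11.4 and 10.2 in Foxd1GC control and 9.44, 11.6 and 11.5 in Ntn1SPKO libraries. All 3 Foxd1GC control libraries lay above all 4 wild-type libraries, by a margin of 10.2 against 10.1 FPKM, and Ntn1SPKO replicates 2 and 3 did too. Means were 8.69 ± 1.48 (SD, n = 4), 10.7 ± 0.568 (n = 3) and 10.9 ± 1.24 FPKM (n = 3). Between Ntn1SPKO and Foxd1GC control the fold was 1.01, with an interval of 0.842 to 1.21 (limma adjusted p = 0.969, exact permutation p = 0.9). Against wild-type it was 1.26 (0.990 to 1.60) for Ntn1SPKO and 1.25 (0.995 to 1.56) for Foxd1GC control. limma's adjusted p was 0.882 and 0.665 for these, unadjusted 0.0583 and 0.0544, with exact permutation p of 0.171 and 0.114, where 0.0286 is the smallest that 3 against 4 libraries allow.

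**Figure D2:**
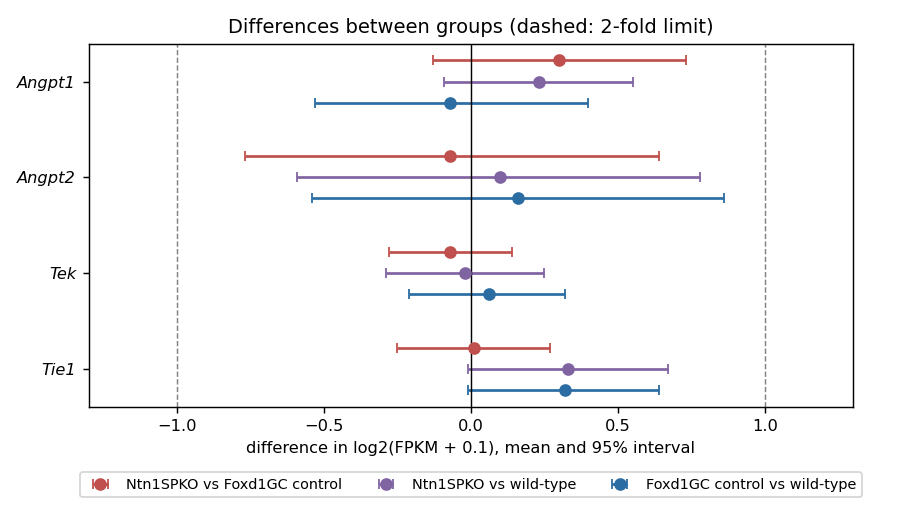
Difference between groups in log2(FPKM+0.1) (horizontal axis) for each member in the 3 comparisons, with limma's 95% interval; dashed lines mark a 2-fold change. All 12 intervals include 0, none reaches a 2-fold change, and the Tie1 intervals against wild-type start at -0.01.

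None of the 4 genes was called in any comparison, a call needing both an adjusted p under 0.1 in limma's test and a change of 2-fold or more, and none had an unadjusted p under 0.05. The targeted gene Ntn1 was not called either, so the absence of a call does not show that a gene is unchanged. Between Ntn1SPKO and Foxd1GC control, 0 of the 4 were called against 8 of 14550 genes tested (0.055%), and 0 of the 4 had groups that did not overlap against 19.9% of all genes. Between Ntn1SPKO and wild-type the calls were 0 of 4 against 7 of 14432 (0.0485%), and non-overlapping groups 0 of 4 against 7.1%. Between Foxd1GC control and wild-type they were 0 of 4 against 1 of 14594 (0.00685%), and 1 of 4, Tie1, against 8.09%. For Angpt1, Angpt2 and Tek, Ntn1SPKO and wild-type differed by 0.23, 0.10 and -0.02 on the log2 scale, and Foxd1GC control and wild-type by -0.07, 0.16 and 0.06, with exact permutation p of 0.257 to 0.8. The comparisons share libraries in pairs, so they do not stand apart from each other. With the presence of Y-linked transcripts in the fit, the difference between Ntn1SPKO and Foxd1GC control was -0.10 for Angpt1, 0.37 for Angpt2 and -0.07 for Tie1, with the sign turned in each. That difference rests on 1 control library, replicate 2, the only Foxd1GC control with Y-linked transcripts. It is therefore no sex-adjusted estimate for the group.

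The ratio of both receptors, Tek and Tie1, separated the wild-type libraries from those with Foxd1-Cre. The values of Tek over Tie1 were 1.33, 1.33, 1.50 and 1.41 in wild-type, 1.15, 1.06 and 1.27 in Foxd1GC control and 1.20, 0.961 and 1.12 in Ntn1SPKO libraries. Each wild-type library lay above each library carrying Foxd1-Cre, and both Foxd1-Cre groups overlapped. On the log2 scale the mean ratio was 0.47 ± 0.08 (SD, n = 4), 0.21 ± 0.13 (n = 3) and 0.12 ± 0.16 (n = 3). It was lower than in wild-type by 0.26 in Foxd1GC control and by 0.35 in Ntn1SPKO, and leaving out any 1 library kept these differences between -0.20 and -0.33 and between -0.26 and -0.42. Ntn1SPKO and Foxd1GC control differed by -0.09, less than the spread within either group. The submitters' design text speaks of Foxd1GC control and Ntn1SPKO samples and not of wild-type ones, and whether the wild-type kidneys were collected or sequenced with the others is not given in the sources used here. A difference in handling and the Foxd1-Cre allele therefore cannot be told apart in the comparisons with wild-type. How many other gene pairs separate the libraries in this way was not counted. Among single genes tested, 7.1% did not overlap between Ntn1SPKO and wild-type and 8.09% between Foxd1GC control and wild-type. The margin was narrow, with a lowest wild-type ratio of 1.33 against a highest of 1.27 with Foxd1-Cre. These ratios were picked with earlier results of these data known and are given without a test.

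For the ligands, Angpt1 over Angpt2 was 4.78, 6.45, 2.97 and 6.50 in wild-type, 3.69, 7.60 and 2.61 in Foxd1GC control and 5.43, 7.14 and 4.11 in Ntn1SPKO libraries. Angpt1 thus exceeded Angpt2 at least 2.61-fold everywhere, and the 3 groups overlapped. On the log2 scale Angpt2 to Angpt1 differed by -0.37 between Ntn1SPKO and Foxd1GC control, and by -0.04 to -0.78 when single libraries were left out.

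**Figure D3:**
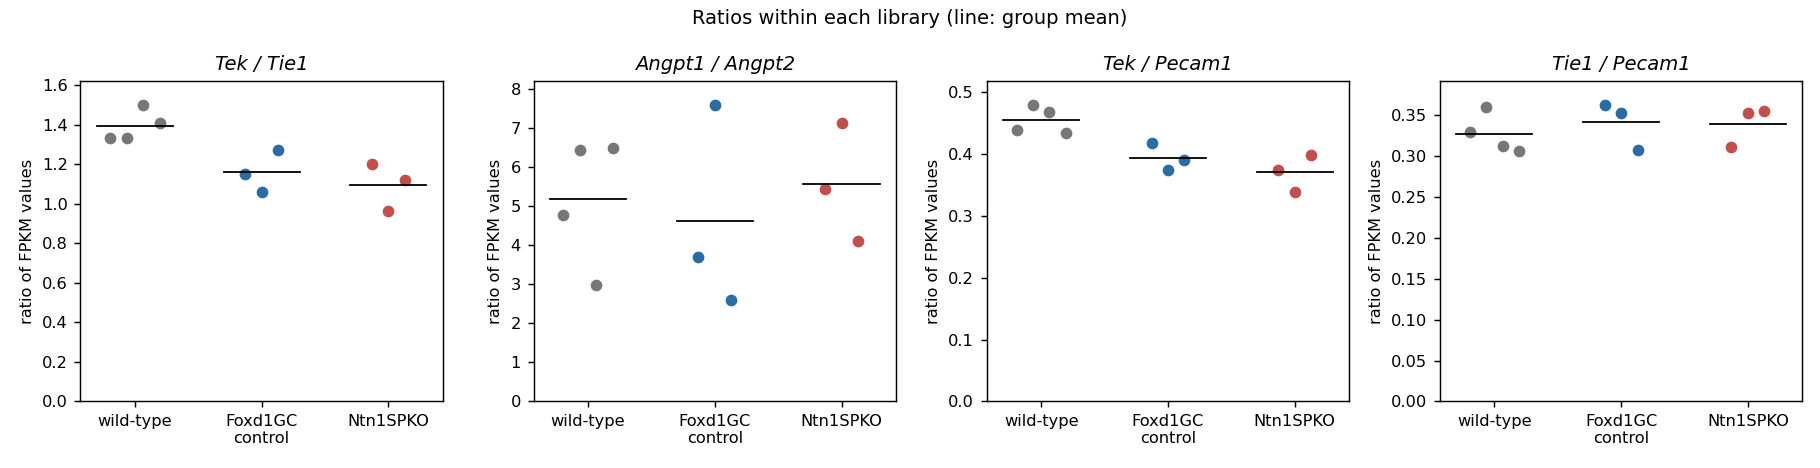
Ratios of FPKM values within each library (vertical axes, from 0) for Tek to Tie1, Angpt1 to Angpt2, Tek to Pecam1 and Tie1 to Pecam1; points are libraries and lines group means. The 4 wild-type points of Tek to Tie1 lie between 1.33 and 1.50, above the 6 points of the Foxd1-Cre groups, which lie between 0.961 and 1.27.

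The promoters of the receptors are shown because Tek and Tie1 are the pair whose ratio differed. RefSeq (GRCm38.p6) gave the 250 bases before the start for 2 of the 4 members, Tek (chr4:94739039-94739288, plus strand) and Tie1 (chr4:118489850-118490099, minus strand). The RefSeq start of Tie1 lies inside the GENCODE gene given above, so 212 of its 250 bases fall within that annotated gene and not before it. No base of the Tek window does. Each is printed 5′ to 3′ along the gene's strand, with capitals for GGAA or its reverse complement TTCC, the core that ETS transcription factors, major regulators of endothelial genes, bind.
Tek: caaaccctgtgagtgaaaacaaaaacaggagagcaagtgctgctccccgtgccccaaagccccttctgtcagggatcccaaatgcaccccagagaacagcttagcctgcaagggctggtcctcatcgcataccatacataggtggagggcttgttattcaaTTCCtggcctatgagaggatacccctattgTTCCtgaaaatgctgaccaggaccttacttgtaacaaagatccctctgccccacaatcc
Tie1: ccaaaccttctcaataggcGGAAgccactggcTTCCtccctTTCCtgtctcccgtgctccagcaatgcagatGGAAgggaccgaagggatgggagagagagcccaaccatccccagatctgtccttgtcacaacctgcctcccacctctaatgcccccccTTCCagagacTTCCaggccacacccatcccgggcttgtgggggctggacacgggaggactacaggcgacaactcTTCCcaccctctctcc
The Tek window holds the core 2 times and the Tie1 window 7 times. At least 2 were found in 76.8% of the 32851 promoters of the same length, and at least 7 in 3.82%, with a median of 3. The longer word AGGAAG or its reverse complement CTTCCT, which overlaps the core, occurs 1 time in Tie1 and is not in the Tek window, and 29.5% of promoters hold it. GATA or its reverse complement TATC occurs 1 time in Tek and is not in the Tie1 window (53.6% of promoters). The TATA box word TATAAA, searched on both strands, is in neither window (12.4% of promoters). These matches describe letters only.

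Since the receptors are endothelial, the members were also set against an endothelial index, the mean log2(FPKM+0.1) of 11 endothelial genes led by Pecam1, Cdh5 and Kdr (an adhesion molecule, the VE-cadherin gene and the main VEGF receptor). The index was 3.49 ± 0.15 (SD, n = 4) in wild-type, 3.83 ± 0.06 (n = 3) in Foxd1GC control and 3.72 ± 0.21 (n = 3) in Ntn1SPKO kidneys. None of the 10 index genes tested was called, and all 10 had a higher mean log2 level in both Foxd1-Cre groups than in wild-type, with a median difference of 0.17 for Foxd1GC control and 0.23 for Ntn1SPKO against -0.01 and 0.00 over all genes tested. Egfl7, a secreted endothelial factor, differed most among the index genes tested in both comparisons with Foxd1GC control, at 30.5 ± 3.72 FPKM in wild-type, 50.4 ± 7.03 in Foxd1GC control and 37.0 ± 3.96 in Ntn1SPKO. Its Foxd1GC control libraries lay above all others, by 0.72 from wild-type (limma adjusted p = 0.665, exact permutation p = 0.0286), and Ntn1SPKO differed from them by -0.44 (SE 0.13, limma adjusted p = 0.447, exact permutation p = 0.1). Erythroid genes moved with the index. All 8 tested had a higher mean than in wild-type, with a median of 1.04 in Foxd1GC control (all 8 at an unadjusted p under 0.05) and 0.34 in Ntn1SPKO, and their summed level was 4610 to 10500 FPKM in wild-type, 7690 to 17400 in Foxd1GC control and 4700 to 18000 in Ntn1SPKO libraries. Their part in the result was not tested. Pecam1 was at 26.4 ± 2.97 FPKM in wild-type, 31.6 ± 2.05 in Foxd1GC control and 31.9 ± 1.41 in Ntn1SPKO. One index gene, Robo4, is listed at 0 in 7 libraries, all 4 wild-type ones included, and reaches 1.10 FPKM in control replicate 1, so it moves the index between groups.

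Relative to the index, Tek was lower than in wild-type by 0.29 in Foxd1GC control and by 0.25 in Ntn1SPKO, in both cases with groups that did not overlap. The exact permutation p was 0.0286 for each, the smallest that 3 against 4 libraries allow, and 0.172 after adjustment over the 12 tests of the 4 members, so neither passed the correction. With Robo4 left out, a choice made after the values were seen, the difference was -0.20 for Ntn1SPKO (exact permutation p = 0.0286) and -0.16 for Foxd1GC control, where the groups then overlapped (exact permutation p = 0.143). Taking the median of the index genes gave -0.10 and -0.09, with exact permutation p of 0.2 and 0.371. A lower value relative to the index is not particular to Tek. On their own, the index genes Icam2, Emcn and Cldn5 differed from wild-type by 0.02, 0.02 and 0.06 in Foxd1GC control. In Ntn1SPKO they differed by 0.03, 0.07 and 0.05. Tek itself differed by 0.06 and -0.02, and the other index genes tested rose more. Against Pecam1 alone, the ratio of Tek was 0.439, 0.480, 0.468 and 0.434 in wild-type, 0.418, 0.374 and 0.391 in Foxd1GC control and 0.374, 0.339 and 0.399 in Ntn1SPKO libraries. Every wild-type library was again above the others, whereas the ratio of Tie1 to Pecam1, 0.307 to 0.363 over all 10 libraries, overlapped between the groups. Between Ntn1SPKO and Foxd1GC control none of the 4 members passed relative to the index (exact permutation p of 0.3 to 0.9), with differences of 0.41 for Angpt1, 0.04 for Angpt2, 0.03 for Tek and 0.12 for Tie1. The value for Angpt1 was 0.26 without control replicate 3 and 0.63 without control replicate 2. Between Foxd1GC control and wild-type, Angpt1 relative to the index differed by -0.41 (exact permutation p = 0.114, adjusted 0.456), by -0.26 without control replicate 3 and by -0.64 without control replicate 2.

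Across the 10 libraries, Tie1 followed the endothelial index (Pearson's r = 0.87, permutation p = 0.00085; Spearman's rho = 0.83, permutation p = 0.0048). After adjustment over 6 relations these p-values were 0.0051 and 0.0288, and r was 0.66 without the 2 libraries farthest from the median index. Taken as deviations from the group means, r was 0.77, and with the index without Robo4 it was 0.91. For Tek and the index r was 0.59 (permutation p = 0.0708, adjusted 0.185) and rho 0.43 (permutation p = 0.22), with an r of 0.18 without the 2 farthest libraries and 0.78 as deviations from the group means. Tek and Tie1 themselves gave r = 0.56 (permutation p = 0.0923, adjusted 0.185) and rho = 0.18 (permutation p = 0.632), with r = -0.20 without the 2 farthest and 0.75 within groups. The relation of the receptors over all libraries thus rested on those libraries. The ligands did not pass with the index or with each other: r was 0.21 for Angpt1 and 0.43 for Angpt2 with the index, and -0.26 between them, with rho of 0.37, 0.45 and -0.30, and permutation p of 0.193 or more in each.

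As a description, the protein-coding genes whose log2(FPKM+0.1) was most alike over the 10 libraries were taken among 13045. For Tie1 they were Fam102b, Cdh5 and Chst1, with r of 0.95, 0.94 and 0.92. Cdh5, which encodes VE-cadherin of endothelial junctions, ranged from 34.7 to 51.2 FPKM. Angpt1 was most like Pbx3, a homeodomain factor (r = 0.97, at 26.8 to 40.0 FPKM), and then Tspan18 and Nudcd3 (both 0.95). Itpr2, a calcium channel of the endoplasmic reticulum (0.97), Glipr1 (0.93) and Pcdhb4 (0.90) were nearest to Tek, and Mtx1, B3galt4 and the scavenger receptor Msr1 to Angpt2 (each 0.90). The points share the same 10 libraries, and these values carry no test.

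The wider pathway was covered by 52 genes in 4 lists, of which 48, 47 and 48 could be tested in the comparison of Ntn1SPKO with Foxd1GC control, of Ntn1SPKO with wild-type and of Foxd1GC control with wild-type. limma called 0 of them in each comparison, with 4, 5 and 4 at an unadjusted p under 0.05. Of all genes tested, 10.7%, 5.76% and 7.06% had such a p. Their median log2 differences were 0.05, 0.06 and 0.04, beside 0.01, 0.00 and -0.01 over all genes tested.

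The family relatives were the third ligand Angpt4 and 7 angiopoietin-like genes, which encode secreted proteins that do not bind Tek. Of these 8, 5 angiopoietin-like genes could be tested between Ntn1SPKO and Foxd1GC control, all 5 with a lower mean in Ntn1SPKO. Their median difference was -0.43. Angptl1 lay lowest. It was at 2.09, 1.99, 1.98 and 1.60 FPKM in wild-type, at 3.81, 1.14 and 9.78 in Foxd1GC control and at 0.353, 0.449 and 0.957 in Ntn1SPKO libraries. All Ntn1SPKO values were below all others, and the highest value came from control replicate 3, the library with the highest skeletal muscle markers. The difference was -2.50 (SE 0.76, limma adjusted p = 0.447, exact permutation p = 0.1) from Foxd1GC control and -1.65 (SE 0.30, adjusted p = 0.193, exact permutation p = 0.0286) from wild-type. Groups did not overlap for 1 of the 5 relatives tested against Foxd1GC control and for 2 of the 4 tested against wild-type. Over all genes tested these shares were 19.9% and 7.1%. Skeletal muscle markers also had lower means in Ntn1SPKO in both comparisons. Their summed level was 15.1 to 31.5 FPKM in Ntn1SPKO, 34.2 to 429 in Foxd1GC control and 52.1 to 102 in wild-type libraries, and their median differences were -2.53 from Foxd1GC control (9 of 9 tested below 0) and -2.04 from wild-type (8 of 8 below 0). Their part in the Angptl1 result was not tested. Angptl2, the relative with the highest difference, was at 14.1 ± 0.471 FPKM in Ntn1SPKO and 14.8 ± 1.59 in Foxd1GC control.

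Of the 8 receptor partners and modifiers, 4 had a higher and 4 a lower mean in Ntn1SPKO than in Foxd1GC control, with a median of 0.00. Svep1, an extracellular protein that binds Tie1, was at 3.78, 3.73 and 3.96 FPKM in Ntn1SPKO, at 6.84, 3.57 and 7.86 in Foxd1GC control and at 2.50 to 4.07 in wild-type libraries. Only control replicates 1 and 3 stood above the rest, and the difference of -0.58 did not pass (SE 0.29, limma adjusted p = 0.45). Adam17, a protease that sheds cell surface proteins, was at 25.9, 23.8 and 24.0 FPKM in Ntn1SPKO and at 19.2, 20.4 and 19.8 in Foxd1GC control, without overlap (0.31, SE 0.07, limma adjusted p = 0.447). Its wild-type levels, 22.7 to 28.0 FPKM, lay with those of Ntn1SPKO. Adam17 was the 1 of these 8 genes without overlap between Ntn1SPKO and Foxd1GC control, against 19.9% of all genes tested. Ptprb, the phosphatase that removes phosphate from Tek, was at 4.12 ± 0.933 FPKM in Ntn1SPKO, 4.21 ± 0.495 in Foxd1GC control and 3.80 ± 1.00 in wild-type kidneys.

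Of the 22 genes of receptor signalling, 21 were tested between Ntn1SPKO and Foxd1GC control, 13 higher and 8 lower in the mean, with a median of 0.06. The extremes were Pik3r1, a regulatory subunit of PI3-kinase, at -0.18 (SE 0.11, limma adjusted p = 0.491) and Dok2, an adaptor that binds active Tek, at 0.76 (SE 0.54, limma adjusted p = 0.527). Dok2 was high in 1 of the 3 Ntn1SPKO libraries, at 7.94 FPKM against 2.41 and 2.13 in the others.

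Among 14 transcription regulators of Angpt2 and the receptors, 11 had a higher and 3 a lower mean in Ntn1SPKO than in Foxd1GC control, with a median of 0.10. Erg, an ETS factor of endothelial cells, was at 7.42, 8.10 and 7.40 FPKM in Ntn1SPKO, at 6.00, 6.75 and 6.06 in Foxd1GC control and at 6.41, 6.64, 5.12 and 4.69 in wild-type libraries. The Ntn1SPKO libraries were above all the others, by 0.28 from Foxd1GC control (SE 0.09, limma adjusted p = 0.447, exact permutation p = 0.1) and by 0.43 from wild-type (SE 0.14, adjusted p = 0.667, exact permutation p = 0.0571), and neither difference passed. Groups did not overlap for 4 of the 14 regulators in each of these comparisons, against 19.9% and 7.1% of all genes tested. Nfatc1, a calcium-dependent factor of endocardial and lymphatic endothelium, was lowest between Ntn1SPKO and Foxd1GC control with -0.31 (SE 0.25, limma adjusted p = 0.573).

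**Figure D4:**
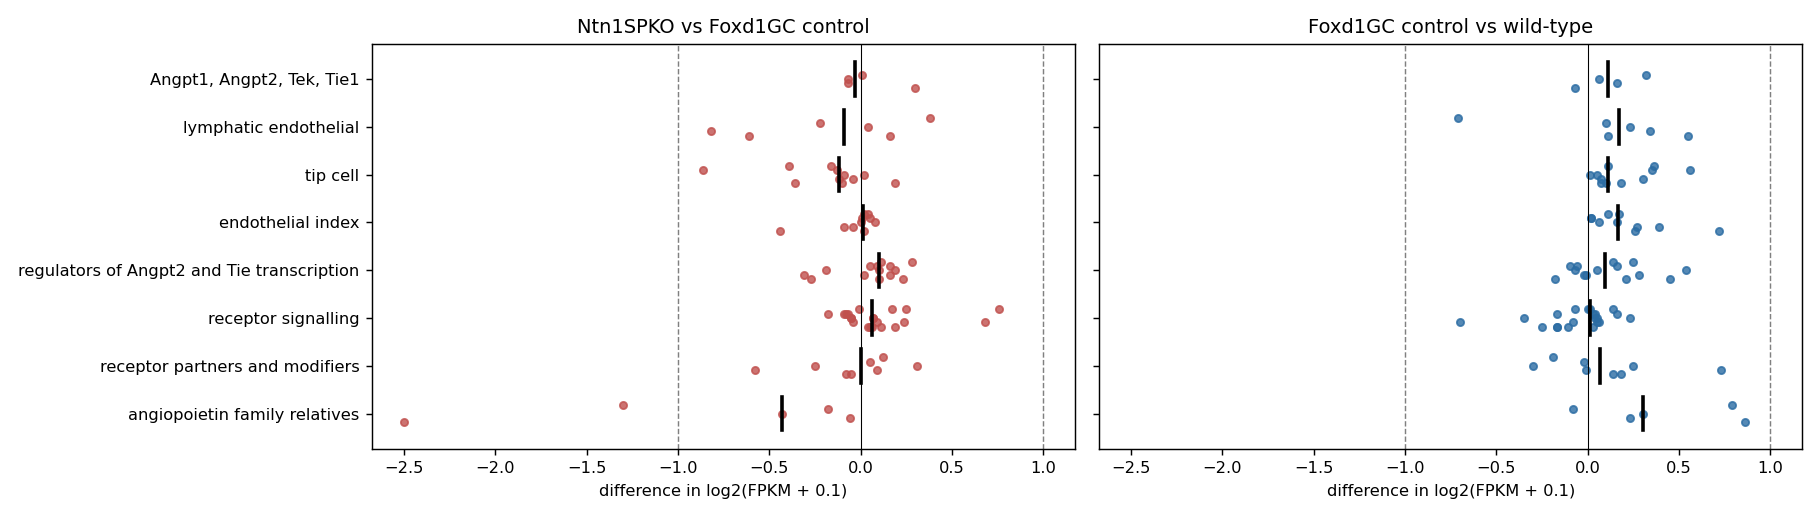
Difference in log2(FPKM+0.1) (horizontal axes) for the tested genes of each pathway and endothelial list and the 4 members, between Ntn1SPKO and Foxd1GC control (left) and between Foxd1GC control and wild-type (right); points are genes, black bars list medians, dashed lines a 2-fold change. No point was called, and the endothelial index genes lie at 0.02 to 0.72 in the right panel, all above 0.

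Among the lists written for endothelial subtypes, the 11 tip cell genes had a median of -0.12 between Ntn1SPKO and Foxd1GC control and of 0.11 between Foxd1GC control and wild-type. Adm, a secreted peptide of sprouting endothelium, was lowest with -0.86 (limma adjusted p = 0.447) and Unc5b, a netrin receptor of tip cells, highest with 0.19 (adjusted p = 0.568). The 6 lymphatic genes tested had a median of -0.09 and ran from Lyve1 at -0.82 (limma adjusted p = 0.487) to Reln at 0.38 (adjusted p = 0.603). Of the mural and smooth muscle genes, cells that are a source of Angpt1, 12 of 16 were tested and 8 had a lower mean in Ntn1SPKO, from Acta2 at -0.65 (limma adjusted p = 0.598) to Ndufa4l2 at 0.23 (adjusted p = 0.813). Acta2 was spread widely in Foxd1GC control, at 39.6 ± 35.7 FPKM (SD), against 19.6 ± 3.24 in Ntn1SPKO and 21.3 ± 4.31 in wild-type. Ntn1SPKO and wild-type differed by -0.1 in Acta2. No gene of these lists was called. In a whole kidney the subtype lists cannot be read as endothelial alone. Over all libraries Cxcr4, Lama4 and Nid2 averaged 38.8, 37.5 and 35.1 FPKM, above Pecam1 at 29.6, while the tip cell gene Esm1 averaged 1.82. Pdpn averaged 27.8 FPKM and Prox1, of the same lymphatic list, 1.35.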

How the data were processed

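Embryonic kidneys were profiled by RNA-seq in 10 libraries, grouped by the deposited genotype labels. According to the methods of the study, the authors estimated transcript abundance with Salmon, without alignment, against Ensembl GRCm38 coding sequences and imported it to genes with tximport. The submitters' processing notes name bcl2fastq 2.17.1.14. The deposited values are FPKM, and the unit hides the read counts, so no count test was run. Median-of-ratios factors were 1.002 in all libraries, so a scaling between libraries is already in the values. Summed FPKM was 795829 to 1002638. Depth, read roughly from steps between low values, was 26.0 to 30.5 M fragments (1 M is 1e6). That step signal was weak, so fragment numbers are approximate.

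For each pair of groups, genes averaging 0.5 FPKM or more in its libraries entered limma 3.58.1 (R 4.3.3) as log2(FPKM+0.1), with the intensity trend on. Benjamini-Hochberg adjustment ran over all genes tested. A call needed both an adjusted p under 0.1 and a change of 2-fold or more. A fold on this scale understates the change of low genes. On data drawn with 200 changed genes among 14297 for Ntn1SPKO against Foxd1GC control, the procedure called all 200 and 21 unchanged genes. The drawn changes were large, with a median estimate of 2 on the log2 scale. They were placed in better expressed genes only, with noise drawn independently for each value. Smaller changes were not drawn, so this check does not show that they would be called. Single values were tested with exact two-sided permutation tests, and relations with 100000 permutations. Besides the 4 members, the text names the lowest and highest tested gene of each list between Ntn1SPKO and Foxd1GC control, the first 3 index genes and the 3 genes most like each member. Ptprb, as the phosphatase of Tek, and Robo4, for its zeros, were named in addition. For some lists these genes are not reported here. The members and lists were chosen with earlier results of these data known. Annotation was GENCODE M21 (GRCm38), which held 96.3% of the symbols in the table, and promoters were taken from RefSeq. Alternatives covered the pseudocount, the filter, the trend, the scaling, a replicate block, Y-linked transcripts, the index genes and each library left out. An index without Robo4 was added after the values were seen.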

Additional observations from a re-analysis of the deposited data

Results flagged for a closer look

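The summed level of the 8 receptor partners and modifiers (Ptprb, Svep1, Itga5, Itgb1, Itgav, Mmp14, Adam10 and Adam17) was 390 FPKM in wild-type replicate 3, against 432 to 440 in the other 3 wild-type libraries. The gap made up 0.84 of the group's range, above Dixon's 95% critical value for 4 samples. This library also had the lowest Svep1 of the 10 libraries, at 2.50 FPKM. Of 29 such groups of values examined this was the single one past its limit, and chance alone passes about 1 in 20. Of the 4 members, none was far from its wild-type group by this measure. The limit used is for 4 samples, so it does not judge the Foxd1GC control and Ntn1SPKO groups of 3 libraries.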

How the results depend on the processing

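No member was called under any alternative. Between Ntn1SPKO and Foxd1GC control the 8 genes called became 21 without the filter on low values, 0 with all 10 libraries in one fit and 3 to 78 with 1 library left out: 16, 78 and 20 without Foxd1GC control replicate 1, 2 or 3, and 21 and 3 without Ntn1SPKO replicate 1 or 2. Between Ntn1SPKO and wild-type the 7 became 2 with a pseudocount of 1, 18 without the filter, 12 without the intensity trend, 0 in the joint fit, 187 with the Y-linked covariate and 1 to 20 with 1 library left out: 17 and 20 without wild-type replicate 3 or 4, and 19 and 1 without Ntn1SPKO replicate 1 or 2. For Foxd1GC control and wild-type the 1 became 2 with a pseudocount of 1 or of 0.01, 9 without the filter, 4 without the trend, 0 in the joint fit and 3 to 20 with any 1 of the 7 libraries left out, the 20 without Foxd1GC control replicate 2.

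No pairing of the samples by replicate number was seen (correlations of same-numbered deviations of -0.05 to 0.08). With groups this small such values cannot show that no litter or batch was shared, and the labels do not say. With the numbers as a replicate block, the calls between Ntn1SPKO and Foxd1GC control became 4, Angpt2 turned to -0.10 between Ntn1SPKO and wild-type, and Angpt2 and Tek turned to -0.03 and -0.02 between Foxd1GC control and wild-type. The cause was not tested for these or the other changes here.

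No sign of a member's difference between Ntn1SPKO and Foxd1GC control held under every alternative except that of Tek. Between Ntn1SPKO and Foxd1GC control, the Y-linked covariate gave -0.10 for Angpt1 (0.30 without it), 0.37 for Angpt2 and -0.07 for Tie1, and quantile normalization 0.05 for Angpt2. Leaving out 1 library gave 0.15 to 0.50 for Angpt1, -0.29 to 0.13 for Angpt2 (above 0 without Foxd1GC control replicate 3 or Ntn1SPKO replicate 2) and -0.04 to 0.11 for Tie1. Between Ntn1SPKO and wild-type, the covariate gave -0.38 for Angpt2, 0.03 for Tek, 0.47 for Angpt1 and 0.49 for Tie1, a common total gave 0.04 for Tek, and leaving out 1 library gave -0.11 to 0.29 for Angpt2 and -0.10 to 0.04 for Tek. With the covariate, the Ntn1SPKO differences rest on 1 library each, Foxd1GC control replicate 2 and wild-type replicate 3. Between Foxd1GC control and wild-type, leaving out 1 library gave -0.26 to 0.08 for Angpt1, -0.03 to 0.38 for Angpt2 and -0.02 to 0.11 for Tek.

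Relative to the endothelial index, the values between Ntn1SPKO and Foxd1GC control became -0.08 (Angpt2), -0.09 (Tek) and -0.01 (Tie1) against Pecam1 alone, 0.00 (Angpt2) and -0.01 (Tek) with the median of the index genes, -0.03 (Angpt2) and -0.04 (Tek) without Robo4, and -0.01 for Tek with a pseudocount of 1. Between Ntn1SPKO and wild-type, Angpt1 moved from 0.00 to 0.04 with a pseudocount of 1, 0.16 with the median and 0.05 without Robo4. With the median, Angpt2 became 0.02, Tek -0.10 and Tie1 0.25, where the exact permutation p for Tie1 was 0.0286, unadjusted and the smallest possible. Between Foxd1GC control and wild-type, Tek became -0.18 with a pseudocount of 1, -0.09 with the median and -0.16 without Robo4, none past 0.05. There, Angpt2 became 0.02 with the median, and Tie1 0.06 with a pseudocount of 1 and against Pecam1 alone, 0.18 with the median and 0.10 without Robo4.

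With 1 library left out, the values relative to the index between Ntn1SPKO and Foxd1GC control ranged from 0.26 to 0.63 for Angpt1, -0.15 to 0.23 for Angpt2 and from -0.04 to 0.07 for Tek. Between Ntn1SPKO and wild-type they ranged from -0.09 to 0.09 for Angpt1, -0.28 to 0.05 for Angpt2 and -0.33 to -0.21 for Tek, and between Foxd1GC control and wild-type from -0.37 to 0.01 for Angpt2, -0.32 to -0.25 for Tek and -0.09 to 0.03 for Tie1. With so few libraries left the exact p for Tek cannot go below 0.0667 or 0.10. With 3 or 4 libraries a group, precision was lowest for Angpt2, the least abundant member, whose intervals were the widest in all 3 comparisons.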

Other observations

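Beside the vascular lists, the lists of other cell types in the kidney or near it held no called gene between Ntn1SPKO and Foxd1GC control. The 10 cortical stroma genes had a median of -0.20 and ran from Postn, a matrix protein, at -1.33 (limma adjusted p = 0.447) to Ecm1 at 0.26 (adjusted p = 0.447). Podocyte genes ran from Synpo at -0.38 to Ptpro at 0.23, and nephron progenitor genes from Cited1 at -0.20 to Pax2 at 0.53.

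Blood and immune genes had a lower mean in Ntn1SPKO than in Foxd1GC control in each gene tested. Erythroid genes ran from Alas2, the heme synthesis enzyme of red cells, at -0.81 to Hbb-y at -0.68, platelet genes from Gp9 at -1.09 to Pf4 at -0.55, and macrophage genes from Fcgr1 at -0.77 to Cd68 at -0.16. The same held for skeletal muscle genes, from Myog at -3.01 to Tnnt1 at -1.56, and for liver genes, from Afp at -2.07 to Apoa1 at -1.50. The adjusted p-values of these lists were 0.447 or more in limma's test.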
